A study of Mus musculus with 4 samples.

Results

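Regions that appeared in the peak lists of both Myb antibodies in MEL cells were described from their positions on the mouse mm9 genome. A region counted as shared when an anti-GFP peak and an anti-Myb peak had at least 1 bp in common. The overlap gave 607 pairs out of 7327 anti-GFP and 3410 anti-Myb peaks. They are 17.8% of the anti-Myb list (exact 95% binomial interval 16.5% to 19.1%) and 8.28% of the anti-GFP list (7.66% to 8.94%). Since the pairs were chosen by overlap, these shares and the closeness of the centres describe the choice and are given without a test.

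MEL is a mouse erythroleukemia line, which grows as early red cell precursors. CUT&RUN was done in 4 libraries, each the only one of its group. An antibody against GFP was used in MEL labelled Myb-GFP and in MEL without that label. Another MEL library is labelled IgRab and lists its antibody as none, and an antibody against Myb was used in the last, also from MEL. The GFP antibody was from Sigma and the Myb antibody from Abcam, per the labels, and no treatment or time is named for any group. The label Myb-GFP is read here as cells carrying Myb joined to GFP. Whether these cells are 1 clone, and how the tag was introduced, is not given in the sources used here. The comparison below uses the lists from anti-GFP in Myb-GFP cells and from anti-Myb. Neither of the remaining libraries was analysed here, and no list from cells without the tag or from an unspecific antibody stands beside the values.

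MYB is a transcription factor found in blood progenitors. It is known for keeping progenitors dividing, and its level drops as red cell precursors mature. It binds a short sequence with its paired Myb repeats and recruits the co-activators CBP and p300, often at enhancers far from the genes they act on. In CUT&RUN an antibody brings a nuclease to the protein on chromatin, and the DNA cut free beside it is sequenced. An antibody against GFP reads the tag, while an antibody against Myb reads the protein itself, so the lists rest on different binding reagents and on different cells.

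The pairing was one to one. The 607 pairs used 607 different anti-GFP peaks and 607 different anti-Myb peaks, so no peak stood in more than 1 pair. Every anti-GFP peak was 337 bp wide and every anti-Myb peak 313 bp, and neither list gave a height. The bases in common came to 111 kb, and the pairs together spanned 284 kb. A pair spanned a median of 468 bp (455 to 484 bp as the 95% interval of the median), from 337 to 649 bp. The overlap itself had a median of 182 bp (166 to 195 bp). In 31 pairs, or 5.11% (3.50% to 7.17%), the anti-Myb peak lay wholly inside the anti-GFP peak.

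Overlap by at least 1 bp holds the centres to at most 324 bp apart, so their closeness follows in part from the rule. The median distance was 143 bp (130 to 159 bp), and 230 pairs (37.9%, 34.0% to 41.9%) had centres within 100 bp. In 323 pairs (53.2%, 49.2% to 57.2%) the overlap covered at least 50% of each peak, and in 66 pairs (10.9%, 8.51% to 13.6%) the centres lay within 25 bp. By the rule for naming regions, the 10 pairs with the smallest distance between centres are named here. The closest, on chromosome 7, joined peaks with nearly the same centre: the anti-GFP peak chr7:139878337-139878673 and the anti-Myb peak chr7:139878348-139878660 had centres 1 bp apart. Pairs with centres 2 bp apart lay on chromosome 11 (anti-GFP peak from 79550011) and chromosome 19 (from 10247677). A pair on chromosome 14 (from 32858830) had centres 3 bp apart and a pair on chromosome 10 (from 19428262) 4 bp apart. The other 5 had centres 5 bp apart and lay on chromosome 9 (from 108243009), chromosome 16 (from 95661144), chromosome 7 (from 150681280) and chromosome 4 (from 46540229 and from 129974103). Their rows were spread over the lists: 2 of these 10 pairs stood in the first 25% of the rows of both, and the chromosome 10 pair stood at anti-GFP row 6280 and anti-Myb row 2608.

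The anti-Myb centre fell to either side of the anti-GFP centre equally often. It lay at the higher coordinate in 305 pairs (50.2%, 46.2% to 54.3%) and at the lower in 302, and the median signed distance was 5 bp (-18 to 23 bp). Without an mm9 annotation the sides could not be turned into upstream and downstream of a gene. The distances were not spread evenly, with counts below that carry exact 95% Poisson intervals for counting error only. Centres less than 50 bp apart were found in 117 pairs (96.8 to 140). Distances of 50 to 100 bp were found in 112 pairs and distances of 100 to 150 bp in 82 pairs (65.2 to 102). The count was 122 pairs (101 to 146) at 150 to 200 bp, 101 pairs at 200 to 250 bp, and 47 pairs (34.5 to 62.5) at 250 to 300 bp. The last 25 bp in which peaks can still overlap, from 300 bp on, held 26 pairs (17.0 to 38.1), of which 19 had the anti-Myb centre at the higher coordinate and 7 at the lower. In these bins the lower count at 100 to 150 bp, next to a higher one at 150 to 200 bp, was present on both sides. There were 41 and 63 pairs with the anti-Myb centre at the higher coordinate, and 41 and 59 pairs with it at the lower. Among pairs in the first 50% of both lists these counts were 37 and 61, and among the other pairs 45 and 61. The intervals of the counts at 100 to 150 and 150 to 200 bp overlap in each of these smaller sets. Over all 607 pairs they overlap narrowly, between 101 and 102 pairs, and these bins were set after the data were seen. Bins shifted by 25 bp covered 75 to 125, 125 to 175 and 175 to 225 bp. They held 39, 55 and 63 pairs on the higher side and 49, 49 and 54 on the lower. The low count on the lower side thus depends on where the bins start.

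**Figure D1:**
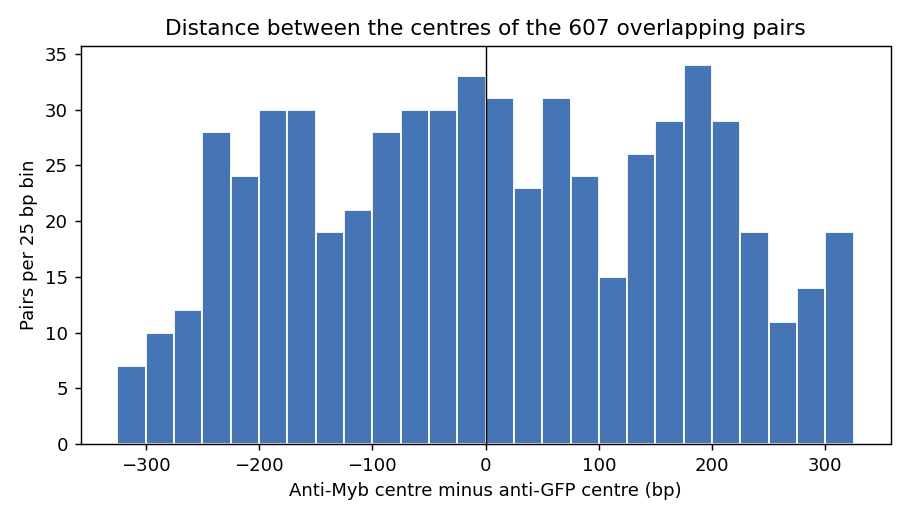
Signed distance between centres (bp, anti-Myb minus anti-GFP, x axis) against the number of pairs per 25 bp bin (y axis) for the 607 pairs. There are 305 pairs to the right of 0 and 302 to the left. The outermost 25 bp bins hold 19 pairs on the right and 7 on the left.

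The limit of 1 bp cut through a continuous range of distances. There were 50 pairs with 1 to 50 bp in common and 55 pairs that missed each other by less than 50 bp. Similarly, 70 pairs had 51 to 100 bp in common and 67 missed by 50 to 99 bp. The smallest overlap, 1 bp, was on chromosome 1 between chr1:52511732-52512068 (anti-GFP) and chr1:52511420-52511732 (anti-Myb). Next came pairs on chromosome 11 with 2 bp in common (anti-GFP peak from 45879090) and chromosome 17 with 3 bp (from 47672585). Pairs on chromosome 6 (from 124325188) and chromosome 5 (from 115521569) had 5 bp in common. Just outside the limit, peaks missed each other by 1 bp on chromosome 11 (anti-GFP peak from 70482428) and chromosome 18 (from 57084770). They missed by 2 bp on chromosome 19 (from 44322329) and chromosome 4 (from 117479164), and by 3 bp on chromosome 17 (from 71614457). The chromosome 6 pair with 5 bp in common stood at rows 242 and 335 of the anti-GFP and anti-Myb lists, and the missed chromosome 19 pair at rows 112 and 208. Early rows were therefore present on both sides of the limit.

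Besides position, the lists keep the row order and a running number per chromosome in each peak name. That number is close to the row order but not the same, and it has gaps. On chromosome 3, with 290 anti-GFP peaks, it reaches at least 3158. What the missing numbers stand for is not given in the sources used here. Row order is used here. What the rows are sorted by is not given in the sources used here. Positions are given below as a percentage of the rows, with low values for early rows. In the anti-GFP list 258 of the 607 pairs (42.5%, 38.5% to 46.5%) stood in the first 25% of the rows, and in the anti-Myb list 203 pairs (33.4%, 29.7% to 37.4%). Of the anti-GFP peaks, 14.1% (12.5% to 15.8%) of the first 25% of rows were in a pair, then 8.57%, 5.73% and 4.75% (3.82% to 5.83%) in the following blocks of 25%. For the anti-Myb list these shares were 23.8% (21.0% to 26.8%), 17.7%, 16.5% and 13.1% (10.9% to 15.6%). The first block held 2.97 times as many pairs as the last in the anti-GFP list and 1.81 times as many in the anti-Myb list, a difference that was not tested.

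Pairs early in the anti-GFP list were early in the anti-Myb list in a larger share than all pairs, though many stood elsewhere. The first 25% of both lists held 113 pairs (18.6%, 15.6% to 21.9%). Of the 258 pairs in the first 25% of the anti-GFP rows, these 113 were 43.8% (37.7% to 50.1%), while 15 of the 87 pairs in the last 25% of the anti-GFP rows (17.2%, 9.98% to 26.8%) stood in the first 25% of the anti-Myb rows. The same share over all pairs was the 33.4% above. The positions of a pair in the 2 lists differed by a median of 25.4 percentage points. They lay within 10 points of each other in 150 pairs (24.7%) and at least 50 points apart in another 113 pairs (18.6%). Of the latter, 75 were earlier in the anti-GFP list and 38 in the anti-Myb list. Over all pairs the median position was also earlier in the anti-GFP list, at 31.8% against 42.5%.

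**Figure D2:**
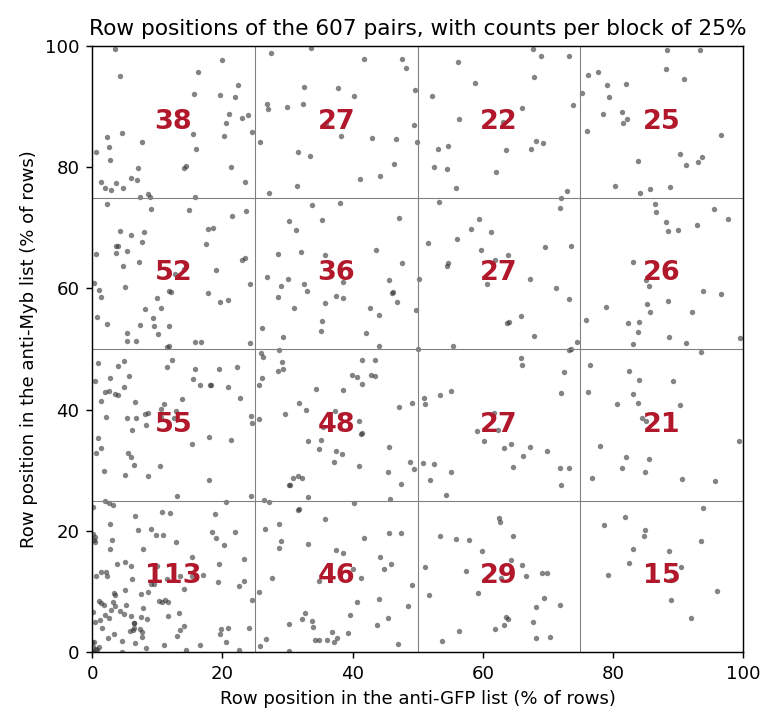
Row position of each of the 607 pairs in the anti-GFP list (x axis, percentage of rows) and in the anti-Myb list (y axis, percentage of rows); grey lines mark blocks of 25% and red numbers count the pairs in each block. The block that is early in both lists holds 113 pairs and the block late in the anti-GFP list and early in the anti-Myb list holds 15.

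The 3 most discordant pairs in each direction are named after their values were seen. On chromosome 9 the anti-GFP peak chr9:44041385-44041721 was row 254 while the anti-Myb peak chr9:44041434-44041746 was row 3393, with centres 37 bp apart. A chromosome 12 pair (anti-GFP peak from 56489139) stood at rows 310 and 3239 with centres 86 bp apart, and a chromosome 5 pair (from 104189157) at rows 162 and 2899 with centres 30 bp apart. In the other direction, the anti-GFP peak chr5:108188032-108188368 was row 6743 and its anti-Myb partner chr5:108188060-108188372 row 192, with centres 16 bp apart. A chromosome 13 pair (from 37601366) stood at rows 6509 and 296 with centres 34 bp apart. A chromosome 17 pair (from 50275772) stood at rows 7032 and 347, with centres 207 bp apart.

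The distance between centres was then set beside row position. The median was 137.5 bp (122 to 155 bp) for the 262 pairs in the first 50% of both lists and 175 bp (130 to 197 bp) for the 100 pairs in the second 50% of both. Centres lay within 100 bp in 38.5% (32.6% to 44.7%) of the first and 31.0% (22.1% to 41.0%) of the second, and these intervals overlap. The 20 pairs with the earliest mean position, taken over 12 chromosomes, had a median distance of 153 bp, and 6 of them had centres within 100 bp. Their overlaps ranged from 64 to 313 bp with a median of 172 bp. At the head of the lists, then, many pairs overlapped by part of their width.

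Of the 20 earliest pairs, the 11th to the 20th are given by their rows in the anti-GFP and anti-Myb lists, which differ in length. The 11th, on chromosome 8, joined 2 peaks: the anti-GFP peak chr8:47632333-47632669 was row 36 and the anti-Myb peak chr8:47632240-47632552 row 169. A chromosome 15 pair (anti-GFP peak from 98436293) stood at rows 115 and 137, a chromosome 3 pair (from 137631978) at rows 251 and 105, and a chromosome 2 pair (from 6188297) at rows 184 and 190. A chromosome 17 pair (from 86700201) stood at rows 146 and 207, and a chromosome 14 pair (from 66885050) at rows 85 and 179. The chromosome 19 pair from 42827291 was row 4 for anti-GFP and row 229 for anti-Myb. The chromosome 2 pair from 127910846 was at rows 331 and 61, the chromosome 9 pair from 21767170 at rows 480 and 50, and the chromosome 11 pair from 95218115 at rows 601 and 24. As a share of each list, the chromosome 19 pair stood at 0.055% and 6.72% and the chromosome 11 pair at 8.20% and 0.704%, while the chromosome 3 pair stood at 3.43% and 3.08%. The remaining 10 of the 20 include the pair nearest the head of both lists, chrX:166436069-166436405 with chrX:166436091-166436403. That anti-Myb peak was the last one along chromosome X, and 1 further anti-GFP peak lay beyond it, from 166437108 to 166437444. Among the same 10 was a chromosome 17 pair (from 31208190) at rows 13 and 32. A chromosome 3 pair (from 100242767) stood at rows 39 and 21. A chromosome 9 pair (from 22018676) stood at rows 3 and 58, and a chromosome 15 pair (from 27801735) at rows 73 and 30. The chromosome 19 pair from 44271821 was at rows 22 and 60. The rest are named below with neighbouring pairs and further peaks.

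The pairs early in both lists were scattered over the genome. The first 10% of both lists held 45 pairs on 18 chromosomes, with 6 on chromosome 17, 5 each on chromosomes 11 and 2, and 4 on chromosome 9. They fell into 35 different windows of 10 Mb, and 27 of these windows held a single one. The most in 1 window was 3, on chromosome 19 from 40 to 50 Mb, which held 9 pairs in all, and on chromosome 9 from 20 to 30 Mb, which held 5. Centres of the 45 pairs were a median of 136 bp apart (91 to 180 bp), against 143 bp (130 to 159 bp) over all 607. A member was the earliest row of its chromosome for 7 of 20 chromosomes in the anti-Myb list and 6 of 20 in the anti-GFP list. The first member of a chromosome stood within its first 3 listed peaks for 14 and 12 chromosomes, respectively. Over the whole lists, 17.8% of anti-Myb and 8.28% of anti-GFP peaks were in a pair. In the first 25% of the rows these shares were 23.8% and 14.1%. Whether members stood first, or within the first 3, more often than such shares would give was not tested. The latest first member was the fifth listed peak in the anti-Myb list, and the 12th in the anti-GFP list, on chromosomes 4 and 13.

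Overlapping peaks were then set beside peaks that lay close to the other list without touching it. In the anti-GFP list the median row position was 31.8% (28.5% to 35.1%) for the 607 paired peaks and 32.5% (28.1% to 35.9%) for the 515 peaks without overlap that had an anti-Myb centre within 1 kb. It was 35.3% (31.3% to 39.9%) for the 465 peaks at 1 to 10 kb, 50.5% (48.9% to 52.1%) for the 2628 peaks at 10 to 100 kb, and 59.0% (57.4% to 60.6%) for the 3112 peaks farther away. The intervals of the first 3 classes overlap and lie below those of the last 2. Early anti-GFP rows thus went with an anti-Myb peak within 10 kb, touching or not. Anti-Myb medians were 42.5% (38.8% to 45.6%) for paired peaks, 47.3% (42.3% to 52.3%) for peaks without overlap within 1 kb, and 47.8% (43.0% to 51.3%) at 1 to 10 kb. They were 52.5% (49.4% to 55.4%) at 10 to 100 kb and 58.7% (55.5% to 65.3%) beyond.

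Paired peaks and near misses were also counted at the head of each list. The first 10% of the anti-Myb list held 17.0% (14.1% to 20.2%) of the paired peaks and 10.6% (8.04% to 13.6%) of the peaks within 1 kb without overlap, and these intervals do not overlap. In the anti-GFP list the values were 24.4% (21.0% to 28.0%) and 19.8% (16.4% to 23.5%), whose intervals overlap. Whether the step differs between the lists was not tested. Overlap chose the members, so these are descriptions, and the intervals cover the counting of peaks in 1 library of each kind.

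**Figure D3:**
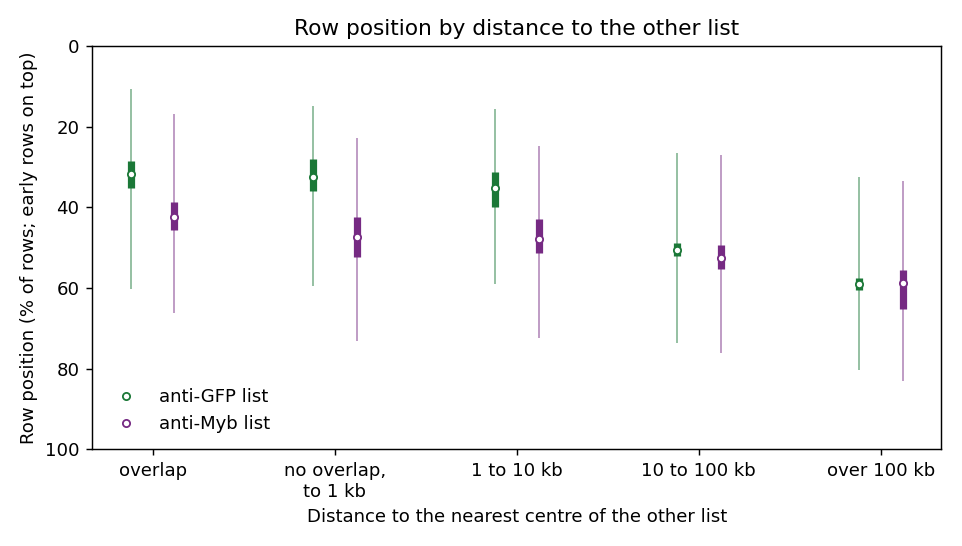
Row position (y axis, percentage of rows, early rows on top) of peaks by distance to the nearest centre of the other list (x axis); circles are medians, thick bars 95% intervals of the median and thin lines the middle 50% of peaks. Medians of the anti-GFP list lie at 31.8%, 32.5% and 35.3% for the 3 classes up to 10 kb and at 59.0% beyond 100 kb; the anti-Myb medians go from 42.5% to 58.7%.

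Members were found on all 20 chromosomes with peaks in both lists, chromosomes 1 to 19 and X. These held 605 of the pairs. The other 2 lay on sequences not placed within a chromosome: chr9_random, where the anti-Myb peak was row 136, and chrUn_random, where it was row 3126. Chromosome 11 had the most members with 55, followed by chromosome 17 with 47, chromosome 9 with 43 and chromosome 2 with 40. Chromosome 14 had the fewest with 10. Per 10 Mb between the first and last peak of a chromosome, chromosome 17 held 5.11 pairs, chromosome 11 held 4.65, chromosome 19 held 3.78 and chromosome 9 held 3.57. Chromosome 14 held 0.874 and chromosome X 1.00.

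The numbers of members largely followed the numbers of peaks. For the anti-Myb list the interval of the shared percentage held the whole-list 17.8% on all 20 chromosomes. For the anti-GFP list it held the whole-list 8.28% on 18 of 20. The exceptions were chromosome 17, where 11.7% (8.70% to 15.2%) of 403 anti-GFP peaks were in a pair, and chromosome 14, where 4.39% (2.12% to 7.92%) of 228 were. Of the anti-Myb peaks of these chromosomes, 22.2% (16.8% to 28.4%) and 13.3% (6.58% to 23.2%) were in a pair. No test was made of these differences. Chromosome X was sparse in members but not in its shares, with 16 pairs among 68 anti-Myb peaks (23.5%, 14.1% to 35.4%) and 178 anti-GFP peaks (8.99%, 5.23% to 14.2%).

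**Figure D4:**
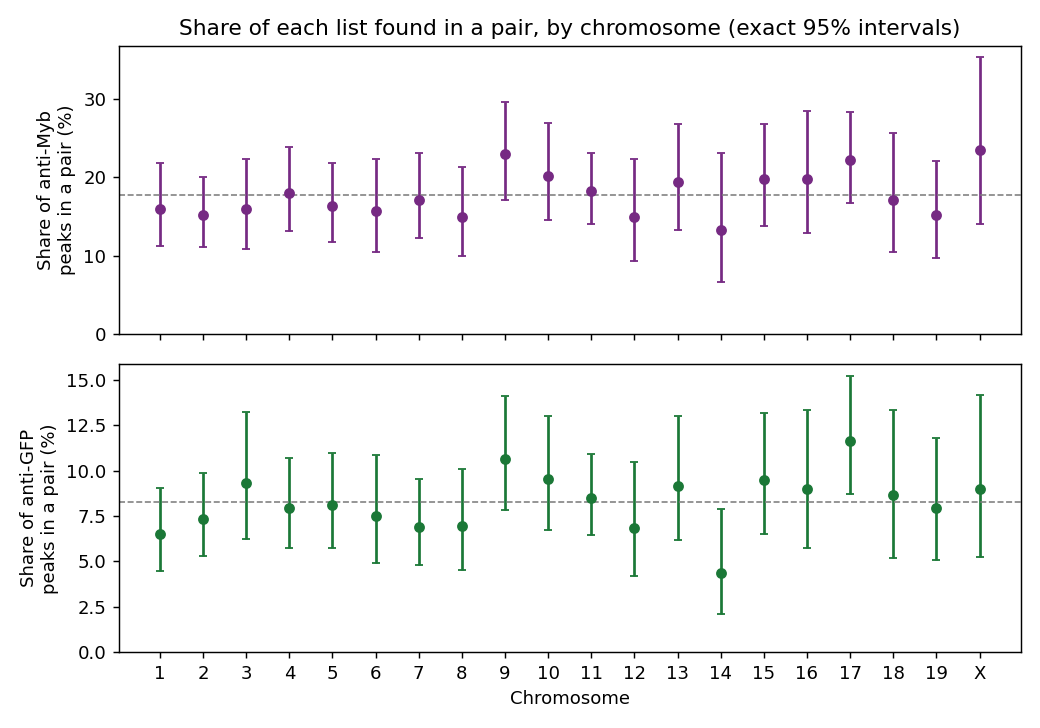
Percentage of anti-Myb peaks (upper panel) and anti-GFP peaks (lower panel) in a pair on each chromosome (x axis), with exact 95% binomial intervals; dashed lines mark the whole-list shares of 17.8% and 8.28%. Chromosomes 17 and 14 are the 2 whose anti-GFP interval misses the dashed line.

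Distances between members are given with no equally large set of other peaks beside them. They do not show whether members lie apart or together. The distance from a pair to the nearest other pair had a median of 0.571 Mb, from 1.45 kb to 55.8 Mb, over the 605 pairs with another on the same sequence. Of the 269 windows of 10 Mb that held any peak, 64 held no pair, 52 held 1, 114 held 2 to 4 and 39 held 5 or more. Those 39 windows held 251 pairs. The window with the most members was chromosome 11 from 70 to 80 Mb, with 14 pairs among 79 anti-GFP and 50 anti-Myb peaks. Windows with 9 pairs were chromosome 17 from 40 to 50 Mb and from 80 to 90 Mb, chromosome 19 from 40 to 50 Mb, chromosome 4 from 130 to 140 Mb and chromosome 9 from 40 to 50 Mb. They differed in how densely both lists covered them: the chromosome 17 window from 40 Mb had 42 anti-GFP peaks against 32 anti-Myb peaks, and the chromosome 4 window 98 against 49.

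Groups of members were counted too, also without such a set for comparison. Another pair lay within 50 kb of 65 pairs (10.7%), in 31 groups of 2 and 1 group of 3, and 542 pairs (89.3%) stood alone at that distance. The group of 3 was on chromosome 13 and spanned 45.5 kb, from 96404279 to 96449758. Each list had 4 peaks there in all. Its pairs had anti-GFP peaks from 96404279, 96407560 and 96449422, with 233, 26 and 167 bp in common with their partners. None of the 3 stood near the head of both lists: their rows were 2815 and 1116, 3392 and 2747, and 5279 and 942.

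Neighbouring pairs closer than 10 kb were found at 8 places, named here after their values were seen. The closest was on chromosome 8, where pairs with anti-GFP peaks chr8:3339306-3339642 and chr8:3340743-3341079 lay 1.45 kb apart. On chromosome 1 the pairs from 87475226 and 87476971 lay 1.93 kb apart, at anti-GFP rows 3340 and 2998 and anti-Myb rows 1153 and 1050. The first pairs of the chromosome 13 group lay 3.38 kb apart, and pairs on chromosome 10 (from 61790019 and 61795671) 5.50 kb apart. The chromosome X pairs from 166429277 and 166436069 lay 6.92 kb apart. Their anti-GFP rows were 11 and 14 and their anti-Myb rows 4 and 1, the earliest of these 8 places. The other 3 places were on chromosome 12 (from 29428542 and 29436133, 7.78 kb), chromosome 17 (from 34347279 and 34355775, 8.42 kb) and chromosome 16 (from 76314199 and 76324278, 9.84 kb).

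Most members had no further peak of either list close by. Within 10 kb, 426 pairs (70.2%, 66.4% to 73.8%) had none, 64 had further anti-GFP peaks only, 83 had further anti-Myb peaks only and 34 had both. No such count is given for unpaired peaks. Of these, 18.9% (anti-GFP) and 21.8% (anti-Myb) had another peak of their own list within 10 kb. A peak of the other list lay there for 14.6% and 35.1%, so few close neighbours are not particular to members. Within 100 kb, 335 pairs (55.2%, 51.1% to 59.2%) had further peaks of both lists and 76 (12.5%, 9.99% to 15.4%) had none. Among these 76, the earliest in the lists was chr16:94920385-94920721 with chr16:94920217-94920529, at rows 340 and 3. The chromosome 5 pair from 147515570 followed, at rows 181 and 82. The pair with the most company was chr10:80065646-80065982 with chr10:80065650-80065962, whose centres were 8 bp apart and which had 8 further anti-GFP and 3 further anti-Myb peaks within 100 kb. The early chromosome 8 pair from 125224293, at rows 50 and 14, had 5 further peaks of each list.

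Surroundings of members and of other peaks were compared with the overlapping partner left out. Another anti-GFP peak lay within 10 kb of 15.7% (12.9% to 18.8%) of paired and 18.9% (17.97% to 19.9%) of unpaired anti-GFP peaks. Another anti-Myb peak lay within 10 kb of 19.3% (16.2% to 22.6%) of paired and 21.8% (20.3% to 23.4%) of unpaired anti-Myb peaks. Within 1, 50 and 100 kb the same-list intervals of paired and unpaired peaks also overlapped, in both lists. For neighbours from the other list the direction depended on the distance. Within 1 kb, 2.64% (1.51% to 4.25%) of paired anti-GFP peaks had an additional anti-Myb peak, against 7.66% (7.04% to 8.33%) of unpaired ones that had any. Within 10 kb the order was the opposite, at 19.1% (16.1% to 22.5%) against 14.6% (13.7% to 15.5%). Within 50 kb the values were 46.3% (42.3% to 50.4%) and 37.1% (36.0% to 38.3%), and within 100 kb 61.1% (57.1% to 65.0%) and 53.7% (52.5% to 54.9%). A paired anti-GFP peak lies at its anti-Myb partner, so the paired values at 50 and 100 kb equal the same-list values of those partners. Among unpaired anti-Myb peaks the same-list values were 49.2% (47.4% to 51.1%) and 63.7% (61.9% to 65.5%). The contrast with unpaired anti-GFP peaks thus carries the grouping of anti-Myb peaks with it. Paired anti-Myb peaks had an additional anti-GFP peak less often than unpaired ones had any. The values were 4.12% (2.68% to 6.02%) against 17.8% (16.4% to 19.3%) within 1 kb and 16.3% (13.5% to 19.5%) against 35.1% (33.4% to 36.9%) within 10 kb. With the partner left out, these paired values nearly repeat the same-list values of the anti-GFP partners, 3.95% within 1 kb and 15.7% within 10 kb. This contrast therefore does not show that anti-GFP peaks are sparser around pairs. The 1 kb contrast of anti-GFP peaks above has the same limit. Beside this stands the spacing of the lists: no anti-GFP centres lay closer than 637 bp to each other, and no anti-Myb centres closer than 568 bp. At 100 kb paired and unpaired anti-Myb peaks differed little in anti-GFP neighbours, at 81.5% (78.2% to 84.6%) against 82.5% (81.1% to 83.9%).

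**Figure D5:**
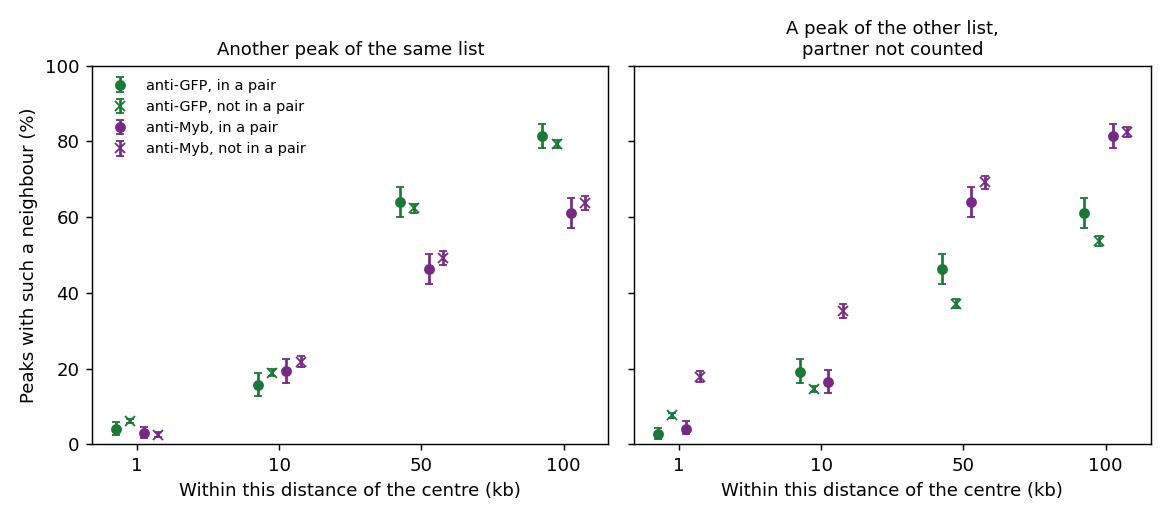
Percentage of peaks (y axis) with another peak of the same list (left) or a peak of the other list besides the partner (right) within 1, 10, 50 or 100 kb of the centre (x axis); circles are peaks in a pair, crosses the others, green anti-GFP, purple anti-Myb, with exact 95% intervals. At 50 kb on the right, 46.3% of paired and 37.1% of unpaired anti-GFP peaks have an anti-Myb neighbour. On the left, paired anti-Myb peaks have the same 46.3% and unpaired ones 49.2%.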

How the data were processed

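CUT&RUN peak lists of 1 anti-GFP library (Myb-GFP MEL) and 1 anti-Myb library (MEL) were used. The submitters' processing notes name the mm9 build, HOMER 4.10.3, STAR 2.7.9a, Picard 2.17.11, Trim Galore 0.6.6, deepTools 3.4.2 and SAMtools 1.11. What each tool did, which peak threshold applied and which control library was used is not stated there, and each decides which peaks are listed. In the score column deposited by the authors all values were 1. The start and end are other values deposited by the authors, printed here 1-based. Read depth is unknown.

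Overlaps were computed in pandas 2.3.3, SciPy 1.17.1 and NumPy 2.4.6 under Python 3.11.15, tested on simulated data, and checked with bedtools 2.31.1, which also gave 607 pairs. Shares carry exact Clopper-Pearson intervals, and medians carry order-statistic intervals at 95%. Both take peaks as independent and cover counting only. With 1 library per group and members chosen by overlap, no test was made. The members and lists were chosen with earlier results of these data known.

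Named regions were the 20 earliest by mean row position, the 10 closest by centre, 5 on each side of the 1 bp limit, and groups of 3 or more pairs within 50 kb. Matching of genes, gene lists, base composition and the MYB motif was not run: it takes coordinates of mm9, and the reference tables at hand are of GRCm38.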

Additional observations from a re-analysis of the deposited data

How the results depend on the processing

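The shares, 17.8% and 8.28%, followed the definition of overlap. Requiring 50% of the shorter peak left 10.4% of the anti-Myb and 4.82% of the anti-GFP list. The shares were 9.47% and 4.41% with 50% of each peak, 6.74% and 3.14% with centres within 100 bp, and 31.7% and 14.97% when gaps up to 500 bp were allowed. The first 50% of each list by rows gave 15.4% and 7.15%. Only the 262 pairs with both peaks in those rows counted there. The 153 pairs early only in the anti-GFP list and the 92 early only in the anti-Myb list dropped out. These lower shares thus do not show that early rows were shared less often. Counting peaks of a list within 10 kb once gave 19.7% and 9.08%. With chromosomes 1 to 19 and X alone the shares stayed inside those intervals. Shared peaks stood earlier than the others in both lists under all 50 alternatives. Of these, 40 gave the difference in 1 list with 1 chromosome left out and were added after the data were seen. Leaving out 1 chromosome removed at most 55 of the 607 pairs, so these 40 could hardly have reversed the direction. The rest drew on subsets of the same pairs or, with gaps allowed, on those pairs and more. Without 1 chromosome the difference in medians lay between -21.7 and -19.0 percentage points (anti-GFP) and between -10.6 and -8.86 (anti-Myb). The number of pairs with another pair nearby was 16 at 10 kb and 113 at 100 kb, against 65 at 50 kb. The share of pairs early in both lists, the median distance between centres, and the anti-Myb shares on chromosomes 17 and 14 stayed within their intervals. The anti-GFP shares on these chromosomes were not computed under an alternative. Alternatives on start sites, gene lists, base composition and motifs were not run, as they take an mm9 reference. No paired analysis was possible because each group had 1 library. Read depth is unknown, so absence from a list does not show that a region was unbound.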
